A study of Rattus norvegicus with 8 samples.

Results

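Collagen chain genes were followed in rat embryonic hippocampal neurons whose axons alone met soluble amyloid oligomers. The members are the 23 genes of 26405 in the deposited tables whose symbol has the form of a collagen chain (Col, a type number, the letter a and a chain number). Of these, 6 code for chains of fibrillar types (I, II, III, V and XI), 3 for basement membrane type IV and 14 for other types. Neurons were kept for 10 to 14 days in microfluidic chambers, in which axons grow into a compartment of their own. Oligomeric Abeta(1-42) or vehicle was put on the axonal side for 24 h, and RNA was sequenced from both compartments. The 8 samples form 4 groups of 2, which are axons with Abeta, axons with vehicle, cell bodies with Abeta and cell bodies with vehicle. All groups share the untreated cell body side, and the cell body samples hold soma together with nearby neurites. Strain, embryonic day and Abeta concentration are not stated in the labels. Nothing there says that duplicates are separate cultures. A p-value here thus weighs a difference between treatments against the spread of these samples, which may be technical, and cannot speak for other cultures.

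Collagens are secreted proteins in which chains wind into a triple helix. Fibrillar collagens build cables, type IV collagen builds the sheet-like network of basement membranes, and type VI collagen forms beaded filaments between them. In the brain most collagen lies in the meninges and around vessels, and neurons themselves make small amounts of a few chains.

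Depth and direction set what can be said. The deposited tables hold 1 comparison of treatments per compartment and do not name the numerator, so a gene with a deposited log2 fold change above 0 is called positive-side, and neither side is called Abeta or vehicle. Normalized counts per library were recovered from the digits of the deposited means, and the 2 libraries of a side are numbered by falling size factor. Axonal size factors were 1.32 and 1.28 on the positive, and 0.952 and 0.740 on the negative side. Those of the cell bodies were 2.97 and 0.297 on the positive, and 3.74 and 0.320 on the negative side, so each side held a deep and a shallow library. Recovered reads ran from 199400 to 383372 per axonal library and from 201847 to 2732840 per cell body library, over genes with a mean of up to 300. In axons both positive-side libraries were deeper than both negative-side ones, so depth and side cannot be told apart there. Of 4 neuronal markers matched by symbol (Tubb3, Gap43, Syt1 and Rbfox3), all had reads in both compartments.

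The windows around the start sites of 3 chain genes are shown because Col1a2 and Col6a1 lay on the positive side in axons while Col4a1 was level. Capitals mark matches on either strand to the CCAAT box (letters CCAAT), the GC box (letters GGGCGG) or the TATA box (letters TATAAA), and no 2 of these matches overlap. The sequences are RefSeq's, from build GRCr8, each from 250 bases before to 50 after the annotated start, all on the plus strand. Col1a2 is at chr4:33518307-33518606, Col6a1 at chr20:11905440-11905739 and Col4a1 at chr16:84885347-84885646.
Col1a2: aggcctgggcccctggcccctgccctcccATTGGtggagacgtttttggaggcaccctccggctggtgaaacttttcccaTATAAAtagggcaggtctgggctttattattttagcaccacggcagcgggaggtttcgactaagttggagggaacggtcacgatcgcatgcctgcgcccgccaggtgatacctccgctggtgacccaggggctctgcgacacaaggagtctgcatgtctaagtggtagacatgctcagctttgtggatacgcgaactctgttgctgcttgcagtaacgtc
Col6a1: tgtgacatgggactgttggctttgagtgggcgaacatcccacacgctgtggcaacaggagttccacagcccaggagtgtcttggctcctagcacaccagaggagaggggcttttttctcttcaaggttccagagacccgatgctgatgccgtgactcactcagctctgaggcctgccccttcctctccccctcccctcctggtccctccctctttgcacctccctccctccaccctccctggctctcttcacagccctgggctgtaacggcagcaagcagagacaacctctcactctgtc
Col4a1: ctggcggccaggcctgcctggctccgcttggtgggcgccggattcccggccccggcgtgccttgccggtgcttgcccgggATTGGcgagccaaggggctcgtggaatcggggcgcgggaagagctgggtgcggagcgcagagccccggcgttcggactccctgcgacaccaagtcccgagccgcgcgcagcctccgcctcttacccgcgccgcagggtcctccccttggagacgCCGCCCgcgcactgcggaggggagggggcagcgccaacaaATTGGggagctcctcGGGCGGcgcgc

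Windows were matched for 18 of the 23 chains. The CCAAT box was found in 5 of them and in 37.5% of all 33469 windows, the GC box in 12 and 33.1%, and the TATA box in 3 and 14.2%. The Col1a2 window has 1 CCAAT match on the opposite strand and 1 TATA match, whose first letter lies 170 bases before the annotated start, and the Col6a1 window has none of the 3 motifs. Col4a1 has 2 CCAAT and 2 GC box matches, and 176 bases of its window are shared with that of Col4a2, its head-to-head neighbour. A match is only a match of letters, and no binding was measured.

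In axons, the called collagens among the 23 members were chains of types I and VI, all on the positive side. Col11a1, which carries no symbol and is no member, was also called and is given below. At an adjusted p under 0.05 in the authors' DESeq2 comparison, 4 of the 23 chains were called positive (Col1a1, Col1a2, Col6a1 and Col6a2) and 0 negative. Only the 2 type I calls passed when p was adjusted over every gene with reads, over genes with a mean of at least 10, or after subtracting the median of well expressed genes. Among all genes with an adjusted p, 8.78% were called positive and 14.2% negative. Only 5 of the 23 chains have an adjusted p, since none is given below a mean of 44.8. A chain high on 1 side passes that floor more easily, so the share of those 5 supports nothing. Without adjustment, 8 chains of 23 had a p under 0.05 on the positive side, against 0 on the negative, where 1.86% and 2.59% of all genes did. A mean of at least 10 was reached by 21 of the 23 chains, against 8032 of 23879 genes with reads. Of 7783 genes with a mean of 10 to 300, 357 had such a p on the positive side and 186 on the negative.

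Col1a1 (ENSRNOG00000003897), the major chain of type I collagen, had 221 and 497 normalized counts in axons on the positive side, against 80.9 and 52.7 on the negative side. Both positive-side libraries stood above both negative-side ones, and they also differed between themselves. In the authors' deposited table its log2 fold change was 2.28 (SE 0.50, adjusted p = 0.000236), a 4.86-fold difference. Its partner Col1a2 (ENSRNOG00000011292) had 93.0 and 238 normalized counts against 8.40 and 35.1. In the authors' deposited table this was a log2 difference of 2.65 (SE 0.63; adjusted p = 0.00105), or 6.29-fold. The second positive-side library held the highest value of both chains. Left-out libraries moved the recovered log2 ratio between 1.71 and 2.88 for Col1a1 and between 2.05 and 4.15 for Col1a2. The lowest of these values came without the second positive-side library, and the highest without the first positive-side one for Col1a1 and without the second negative-side one for Col1a2.

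Reads of the 2 type I chains did not keep 1 ratio. Col1a1 had 2.37 and 2.09 times the reads of Col1a2 in axons on the positive side, against 9.63 and 1.5 times on the negative side. The value of 9.63 rests on 77 reads of Col1a1 and 8 of Col1a2. In the 4 cell body libraries the ratio lay between 0.818 and 1.10, from 9 to 16 reads of either chain. These ratios are of reads and not corrected for length, so only their change between libraries can be read.

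The other 4 fibrillar chains with a symbol had log2 fold changes below 0. Col3a1, the chain of type III collagen, had 17.4 and 17.2 normalized counts on the positive, and 4.20 and 32.4 on the negative side. The negative-side libraries lay on either side of the positive ones, and the deposited log2 fold change was -0.05 (SE 0.86) in the authors' deposited table. Col2a1, best known from cartilage, had 10.6 and 15.7 normalized counts against 34.7 and 17.6, so the negative-side libraries were higher. Its log2 fold change in the authors' deposited table was -0.84 (SE 0.78). Col5a3, a chain of type V collagen, which regulates fibril width, had 29.5 and 19.6 against 23.1 and 51.3. Col11a2, a chain of type XI collagen, had 21.9 and 8.61 against 32.6 and 18.9. Both sets overlapped between sides, and the log2 fold changes were -0.52 (SE 0.70) for Col5a3 and -0.63 (SE 0.78) for Col11a2 in the authors' deposited table. None of these 4 chains has an adjusted p. The median log2 fold change of the 6 fibrillar chains with a symbol was -0.29. It was -0.13 over all genes with reads and 0.15 over genes with a mean of at least 10. Fibrillar chains without a symbol are not in this median and lay above 0. In the authors' deposited table Col11a1 stood at 1.77, Col5a2 at 1.11 and Col5a1 at 0.41.

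**Figure D1:**
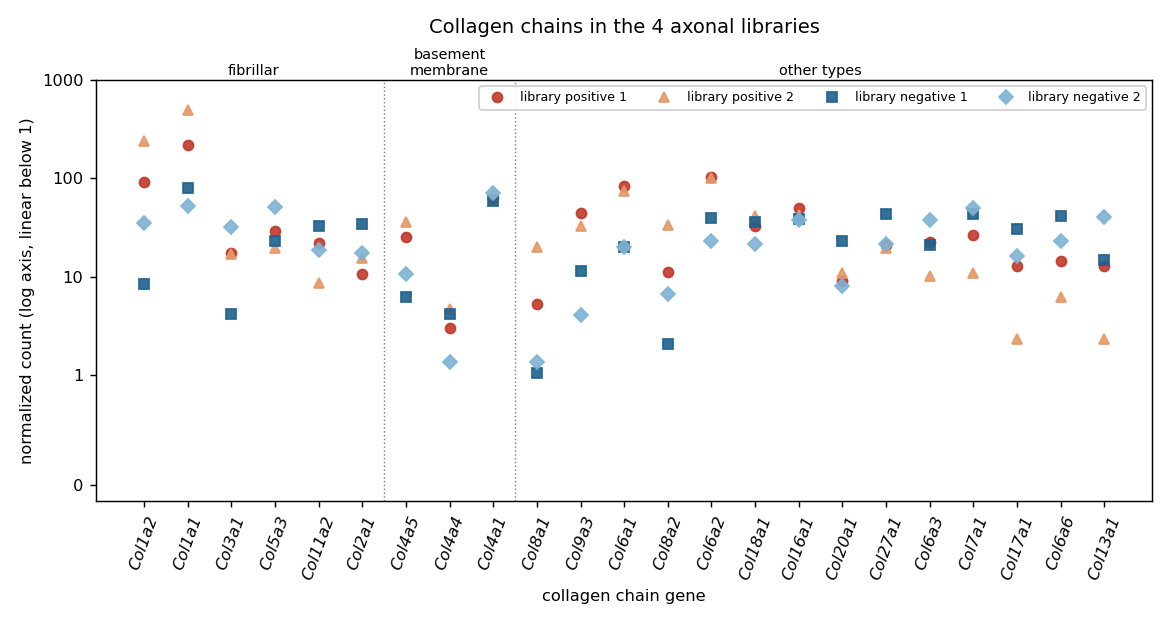
Normalized counts of the 23 collagen chains in the 4 axonal libraries (log axis, linear below 1), 1 point per library, ordered by deposited log2 fold change within each structural group. Both positive-side libraries stand above both negative-side ones for Col1a1, Col1a2, Col6a1 and Col6a2, while the 4 values of Col4a1 lie together.

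Among basement membrane chains, Col4a1 was level. This chain, found in nearly all basement membranes, had 62.7 and 67.3 normalized counts on the positive, and 58.8 and 71.6 on the negative side. The positive values lay between the negative ones, and the log2 fold change in the authors' deposited table was -0.002 (SE 0.54, adjusted p = 0.999). Col4a5, a chain of the kidney's filtration membrane that is also widespread, differed from it in its values. It had 25.7 and 36.0 normalized counts against 6.30 and 10.8, with no overlap between the sides. Its log2 fold change was 1.55 (SE 0.79, unadjusted p = 0.0490) in the authors' deposited table, which gives it no adjusted p. Col4a4, another chain of the filtration membrane, had 3.02 and 4.70 against 4.20 and 1.35, too few to separate the sides. The ratio of Col4a1 to Col4a5 reads was 2.44 and 1.87 in positive-side and 9.33 and 6.63 in negative-side axonal libraries, and 0.942 to 1.94 in the cell bodies.

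Type VI collagen split by chain. Col6a1 (ENSRNOG00000001249) had 84.7 and 74.3 normalized counts on the positive, and 20.0 and 20.3 on the negative side. Libraries of 1 side agreed closely, and in the authors' deposited table the log2 fold change was 1.81 (SE 0.60; adjusted p = 0.0148), or 3.51-fold. Col6a2 (ENSRNOG00000001254), its partner and next neighbour on the chromosome in RefSeq, had 104 and 101 against 39.9 and 23.0 normalized counts. The authors' deposited table lists it at a log2 fold change of 1.57 with an SE of 0.56 (adjusted p = 0.0244), or 2.97-fold. Neither type VI call passed in those 3 other adjustments. Leaving out any 1 library kept the recovered log2 ratio between 1.84 and 2.02 for Col6a1 and between 1.34 and 2.11 for Col6a2.

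Col6a3, the third chain of the classic type VI trimer, gave other values, with 22.7 and 10.2 normalized counts on the positive, and 21.0 and 37.8 on the negative side. The sides overlapped, and its log2 fold change was -0.71 (SE 0.76) in the authors' deposited table, without an adjusted p. Reads of Col6a3 were 0.268 and 0.137 times those of Col6a1 in axons on the positive side, against 1.05 and 1.87 times on the negative side. In the cell bodies this ratio lay between 0.0851 and 0.128. Col6a6, a chain that can take the place of Col6a3, had 14.4 and 6.26 against 42.0 and 23.0 normalized counts, all negative-side values being higher. It stood at -1.39 (SE 0.78, unadjusted p = 0.0729) in the authors' deposited table.

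Network and fibril-associated chains on the positive side had few reads. Col8a1, a chain of the network-forming type VIII collagen, had 5.29 and 20.3 normalized counts against 1.05 and 1.35, the latter from 1 read in each library. Col8a2, its partner, had 11.3 and 33.6 against 2.10 and 6.75. As for type I, the second positive-side library was the highest for both. Col9a3, a chain of type IX collagen, which sits on the surface of type II fibrils in cartilage, had 44.6 and 32.9 against 11.6 and 4.05. Log2 fold changes in the authors' deposited table were 2.07 (SE 1.02) for Col8a1, 1.79 (SE 0.91) for Col8a2 and 1.92 (SE 0.77) for Col9a3. Their unadjusted p-values there were 0.0427, 0.0488 and 0.0132, and the authors' deposited table gives none of the 3 an adjusted p.

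Col16a1, a fibril-associated chain, and Col18a1, a basement membrane proteoglycan that yields endostatin, were close to level. Col16a1 had 49.9 and 42.3 normalized counts against 38.9 and 37.8, a small gap with no overlap. Col18a1 had 33.3 and 41.5 against 35.7 and 21.6. The log2 fold changes were 0.24 (SE 0.61) for Col16a1 and 0.33 (SE 0.66) for Col18a1 in the authors' deposited table.

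The remaining chains lay on the negative side without a call. Col7a1, the chain of the anchoring fibrils of skin, had 26.5 and 11 normalized counts against 43.1 and 49.97. Col13a1, a transmembrane collagen, had 12.8 and 2.35 against 14.7 and 40.5, and Col17a1, the transmembrane collagen of hemidesmosomes, had 12.8 and 2.35 against 30.5 and 16.2. In all 3 the negative-side libraries were the higher ones, and the second positive-side library was the lowest. Their log2 fold changes were -1.16 (SE 0.69), -1.46 (SE 0.86) and -1.27 (SE 0.87), in the same order, in the authors' deposited table. Col27a1, a fibrillar collagen by its helix that the type numbers used here leave among the others, had 21.2 and 19.6 against 43.1 and 21.6. Col20a1, a fibril-associated chain, had 9.07 and 11 against 23.1 and 8.10. Their values in the authors' deposited table were -0.59 (SE 0.71) and -0.51 (SE 0.88).

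**Figure D2:**
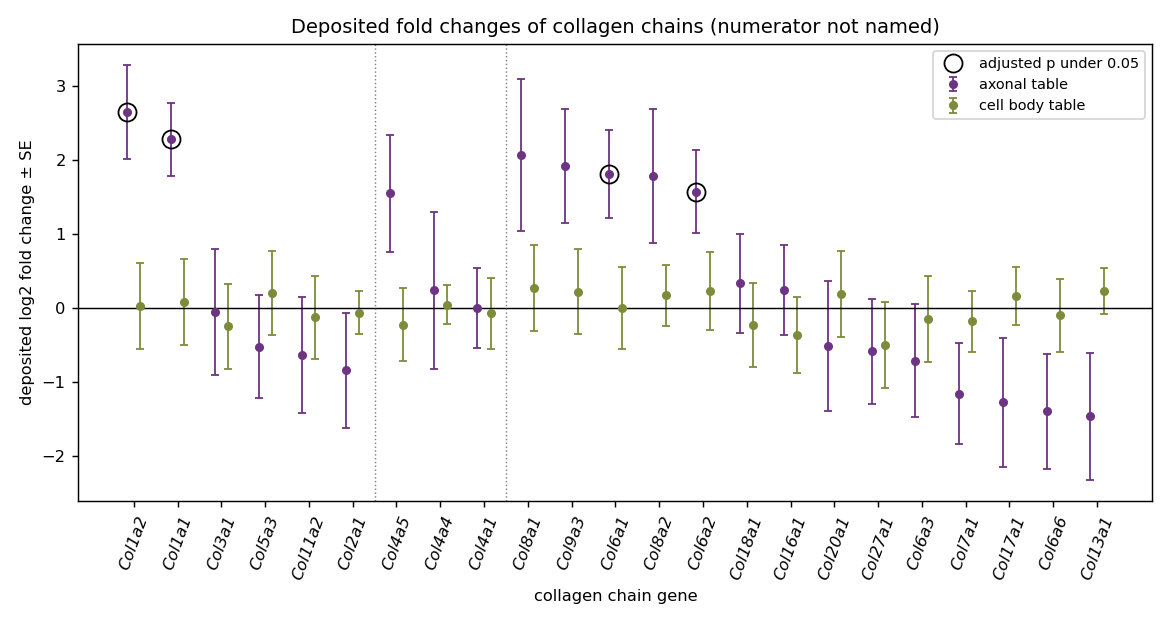
Deposited log2 fold changes with standard errors for the 23 collagen chains in the axonal and the cell body table, circles marking an adjusted p under 0.05. The 4 circled chains, Col1a1, Col1a2, Col6a1 and Col6a2, lie between 1.57 and 2.65 in axons, and every cell body value lies between -0.50 and 0.27. Recovered log2 ratios of the cell bodies, not drawn here, range more widely, from -1.03 to 1.42.

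By sign and median, the chains as a family did not lean to 1 side, although their summed counts did. In axons 11 of 23 had a log2 fold change above 0 and 12 below it, with a median of -0.002, while 43.7% of all genes with reads lay above 0. With a mean of at least 10, 9 of 21 chains lay above 0, against 57.7% of genes. The sides did not overlap, with the positive one higher, in 8 of those 21 chains, where 30.6% of genes with a mean of 10 to 300 did so. The negative side was higher in 6 of 21 chains, against 18.6% of genes. Summed over the 23 chains, the positive-side libraries held 937 and 1312 normalized counts and the negative-side ones 620 and 604. Without both type I chains the sums were 624 and 578 against 530 and 516, so the gap between sides was mostly type I.

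Chains differed in how much of them the cell bodies held. Of the 13 chains with a cell body mean of at least 10, 8 lay above 0 in axons with a median of 0.33, and all 4 calls were among them. Of the 10 chains below that mean, 3 lay above 0 and the median was -0.77. Col2a1 had a mean of 19.6 in axons and 0.502 in the cell bodies, Col13a1 17.6 and 0.842, and Col7a1 32.6 and 1.23 in the authors' deposited tables, which were normalized separately. Other genes showed the same split. Over all genes in the axonal range of the chains, the median was -0.75 for 4478 genes with a cell body mean under 10 and 0.18 for 10242 genes at or above it. Genes without any cell body read took 3.19% and 1.39% of the reads recovered in axons on the positive side, against 6.43% and 5.38% on the negative side. The part of such reads in the negative-side values of Col2a1, Col6a6, Col7a1, Col13a1 and Col17a1 was not tested. Col8a2 and Col9a3, with cell body means of 1.28 and 6.05 in the authors' deposited table, lay on the other side from these 5. Across the 23 chains, which share the same libraries, axonal log2 fold change and log10 cell body mean correlated at 0.458 (Pearson) and 0.517 (Spearman), given as a description.

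**Figure D3:**
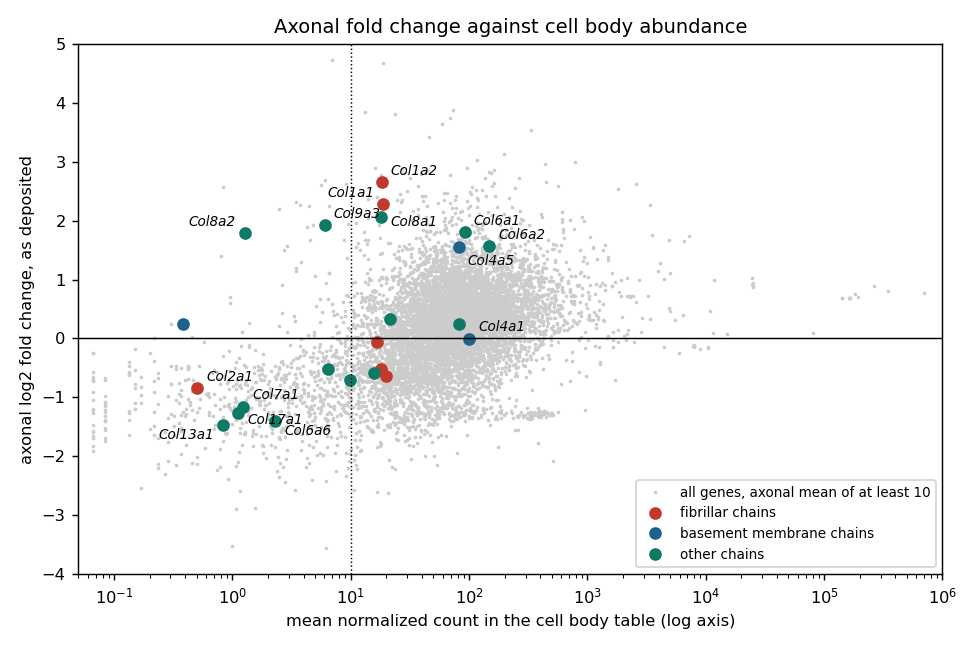
Deposited axonal log2 fold change of each collagen chain against its mean normalized count in the cell body table (log axis), over all genes with an axonal mean of at least 10 and cell body reads (grey); the dotted line is a mean of 10. The 4 called chains lie right of the line, and Col2a1, Col6a6, Col7a1, Col13a1 and Col17a1 lie at low cell body means below 0.

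In the cell bodies, whose axons alone had been treated, no chain was called. At an adjusted p under 0.05 (DESeq2, run by the authors), 0 of 23 chains and 0% of 18995 genes passed. Unadjusted, 0 chains and 2 genes, or 0.0105%, had a p under 0.05. Log2 fold changes ran from -0.50 for Col27a1 to 0.27 for Col8a1 in the authors' deposited table. Their median was -0.005 over the chains and -0.02 over all genes. The recovered log2 ratios ranged more widely, from -1.03 for Col27a1 to 1.42 for Col13a1, the latter from 1 read. Above 0 were 11 of 23 chains, against 45.7% of genes, and 5 of 13 with a mean of at least 10, against 44.2%. The smallest unadjusted p of a chain was 0.385. Each side of this comparison joins 1 deep and 1 shallow library. Within a side these differed up to 12.2-fold in a chain with a mean of at least 10 (Col1a1, positive side). The labels do not say whether the authors' fit had a term for this. The test of the difference between compartments uses the same standard errors. Of the 13 chains with a mean of at least 10, the sides did not overlap in 1, Col3a1, with 17.5 and 10.1 on the positive, and 19.8 and 18.8 on the negative side. Over 10556 genes with a mean of 10 to 300, the negative side was higher without overlap in 8.0% and the positive side in 7.56%.

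Several chains differed between the deep and the shallow cell body libraries, and depth cannot be told apart here from culture, replicate or batch. Col1a1 had 3.03 normalized counts in the deep and 37.0 in the shallow positive-side library, and 3.74 and 31.3 in the deep and shallow negative-side ones. Col1a2 had 3.70 and 33.7, then 4.27 and 31.3, in the same order. In reads, Col1a1 had 9 and 11, then 14 and 10, so the deep libraries held about as many reads of it as the shallow ones. Col8a1 showed 5.73 and 37.0, then 4.27 and 25.0 normalized counts. The type VI chains had smaller gaps, with 47.5 and 135, then 36.9 and 147, for Col6a1 and 91.9 and 236, then 71.6 and 191, for Col6a2. Shallow over deep, summed over sides, was 10.1 for Col1a1, 8.14 for Col1a2, 6.21 for Col8a1, 3.34 for Col6a1 and 2.61 for Col6a2.

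Over 10556 genes with a cell body mean of 10 to 300, the median of this ratio was 0.954, and 90% of genes lay between 0.351 and 3.74. Of the 13 chains in that range 11 were above the median and 3 above the upper bound (Col1a1, Col1a2 and Col8a1). Basement membrane chains were near the median, with 82.5 and 111, then 85.0 and 122, for Col4a1 and 87.6 and 57.2, then 76.9 and 106, for Col4a5, a ratio of 1.39 and 0.994. Col3a1 (0.774) and Col5a3 (0.676) lay below it. Within the deep pair the log2 ratio of the sides ran from -0.23 to 0.36 over the 13 chains, and within the shallow pair from -2.06 to 0.55. Markers of fibroblasts and meninges other than collagens summed to 268 and 465, then 252 and 482 normalized counts, over all 15 listed genes. Without Fbln1 they summed to 195 and 222, then 191 and 231. Without Fbln1 and Mgp they summed to 111 and 185, then 119 and 166. Both genes were left out after their values were seen. Fibril-associated proteins summed to 416 and 1323, then 426 and 1470, of which Sparc alone had 356 and 1158, then 359 and 1264. Neuronal markers summed to 2178 and 1744, then 2240 and 1639. Microglial markers summed to 879 and 478, then 678 and 447. The 4 astrocyte markers with recovered counts summed to 2213 and 2714, then 2174 and 2602. The part of these cells in the collagen values was not tested, and fewer cells of a type cannot be told apart from less RNA per cell.

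**Figure D4:**
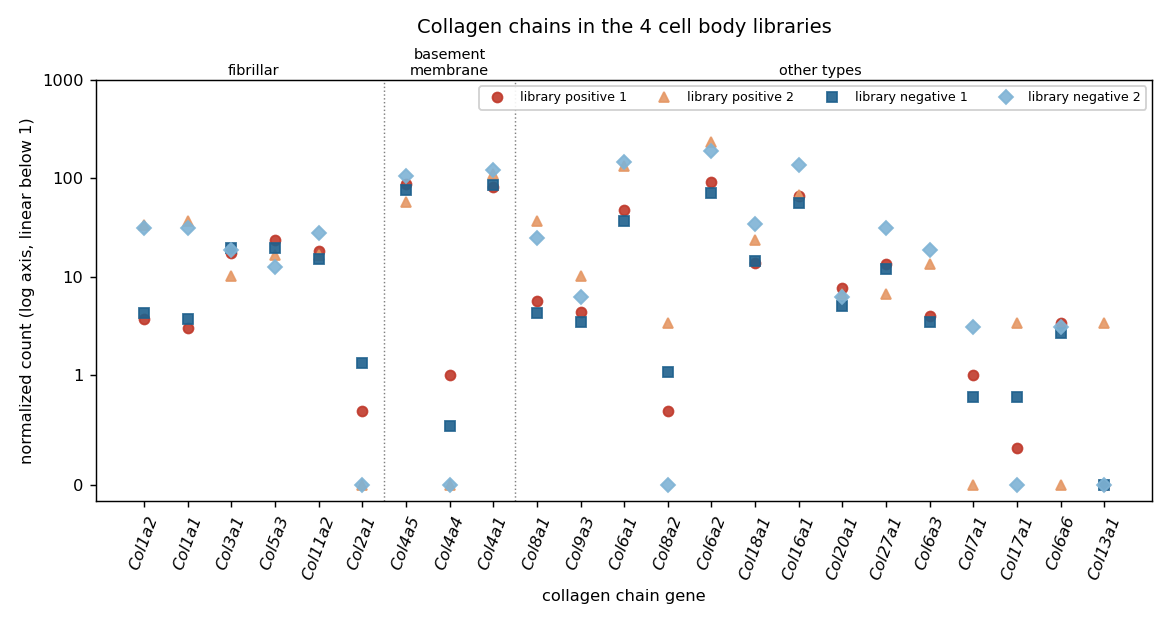
Normalized counts of the 23 collagen chains in the 4 cell body libraries (log axis, linear below 1), in the same order as in the axonal plot, the libraries numbered 1 being the deep ones. Col1a1, Col1a2 and Col8a1 separate by size factor of the library (3.03 and 3.74 against 37.0 and 31.3 for Col1a1) and not by side.

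The difference between compartments was tested for each gene on the deposited log2 fold changes. Those of the chains were nearer 0 than the recovered ratios, more so in the cell bodies than in axons. For Col27a1 they were -0.50 against -1.03 in the cell bodies and -0.59 against -0.64 in axons. The 2 scales may thus be unlike, and what this does to the test was not tested. The axonal minus cell body log2 fold change was 2.20 (SE 0.76, unadjusted p = 0.00400) for Col1a1, 2.62 (SE 0.86, unadjusted p = 0.00230) for Col1a2 and 1.82 (SE 0.81, unadjusted p = 0.0256) for Col6a1. These 3 of 23 chains had an unadjusted p under 0.05, against 2.60% of the 18406 genes tested. None passed after adjustment over those genes (normal test of the difference, Benjamini-Hochberg), where 0.0326% of genes did, and the smallest adjusted p of a chain was 0.800. A call in axons and none in the cell bodies thus does not show that the compartments differ in any collagen chain. By level, Col1a1 had a mean of 213 in axons and 18.8 in the cell bodies, and Col6a2 67.0 and 148, in the authors' deposited tables, which were normalized separately.

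Another 14 chain genes carry no symbol in the tables and were named through their Entrez identifier in RefSeq. They are no members and were looked at after their values were known. Col11a1, the partner of Col11a2, was the only 1 called, with 115 and 151 normalized counts against 45.2 and 25.7 in axons. The authors' deposited table puts it at 1.77 on the log2 scale (SE 0.54; adjusted p = 0.0122). Col5a2, the next gene to Col3a1 on the chromosome, had 59.7 and 51.6 against 23.1 and 24.3, and Col5a1 had 83.9 and 104 against 98.7 and 39.2. Col9a1, a partner of Col9a3, had 7.56 and 5.48 against 13.7 and 9.45, with the negative side higher, unlike Col9a3. Of the 14, 4 lay above 0 in axons (Col11a1, Col5a2, Col4a6 and Col5a1) and the median was -0.59.

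Proteins that fold and secrete collagen lay mostly above 0 in axons. Of 18 measured, 14 had a log2 fold change above 0, against 43.7% of all genes with reads, and their median was 0.78 against -0.13. Above 0 were 12 of the 15 whose mean was 10 or more, against 57.7% of such genes. Only 2 of the 18 have an adjusted p, of which 1 was called positive, where 8.78% of genes with an adjusted p were. The call was Serpinh1, the collagen chaperone HSP47, with 103 and 118 normalized counts against 29.4 and 23.0. In the authors' deposited table its log2 fold change was 1.92 with an SE of 0.55 (adjusted p = 0.00915). The authors' deposited table also has P4hb, a subunit of prolyl hydroxylase, at 1.19 (adjusted p = 0.0982), Ppib, a prolyl isomerase, at 1.22 (SE 0.70) and Mia3, which loads procollagen into carriers, at -0.24 (SE 0.66). None of 10 processing and crosslinking enzymes has an adjusted p, so none could be called. Their median was -0.43, and -0.77 over the 7 with a mean of at least 10. Among them the crosslinking enzyme Loxl1 had 45.4 and 62.6 against 11.6 and 18.9 normalized counts, and Bmp1, which trims procollagen, 41.6 and 30.5 against 43.1 and 9.45. The proteases Tll1 and Adamts3 stood at -0.77 (SE 0.84) and -0.78 (SE 0.92) in the authors' deposited table.

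Proteins that bind collagen outside the cell gave mixed values. Of 9 fibril-associated proteins, 3 have an adjusted p, and 2 were called positive and 0 negative. Over all genes with an adjusted p, 8.78% were called positive and 14.2% negative. The calls were Sparc (836 and 1217 against 127 and 109 normalized counts) and Bgn (187 and 247 against 93.5 and 60.8). The median was -0.26 over all 9. Over the 4 with a mean of at least 10, all above 0, it was 2.04. Fmod had 153 and 342 against 64.1 and 4.05 and Prelp 14.4 and 24.3 against 0 and 4.05. Of 10 basement membrane partners, 4 have an adjusted p, and 1 was called on each side, against those same shares of genes. The median was -0.22, and -0.35 over the 9 with a mean of at least 10. The laminin chain Lamc1 had 127 and 164 against 51.5 and 55.4, while Lama1 had 95.2 and 76.7 against 216 and 215. Of the rest, in the authors' deposited table, Lamb2 (1.09, SE 0.61) and Lama5 (-0.09, SE 0.64) had no call.

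Receptors of collagen had 0 calls among the 2 of 9 with an adjusted p and a median of 0.42. Over the 6 receptors with a mean of at least 10 the median was 0.80. In the authors' deposited table Ddr1, a receptor tyrosine kinase for collagen, stood at 1.46 (SE 0.58; adjusted p = 0.0525) and Itgb1, the beta chain of collagen-binding integrins, at 0.99 (SE 0.52; adjusted p = 0.177). Mrc2, which takes up collagen fragments, and the integrin chain Itga11 stood at 1.05 (SE 0.73) and -0.15 (SE 0.78) in the authors' deposited table. Of 11 proteases and inhibitors, 2 have an adjusted p, and 1 was called positive and 0 negative. Over all genes with an adjusted p, 8.78% were called positive and 14.2% negative. The call was the inhibitor Timp3, with 37.0 and 116.6 against 18.9 and 16.2 normalized counts. The median was -0.05 over all 11, and 1.20 over the 4 with a mean of at least 10. In the authors' deposited table Timp2 (1.35, SE 0.57), Timp1 (1.05, SE 0.75) and the membrane protease Mmp16 (-0.34, SE 0.59) had no call.

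Among markers of other cells, the astrocyte list had the positive calls of 4 genes. Of 6, 5 have an adjusted p and 4 were called positive (Gfap, Slc1a3, Aldoc and Gja1), where 8.78% of genes with an adjusted p were. The 6 summed to 2012 and 2449 against 340 and 735 normalized counts. Of 15 fibroblast and meningeal markers, only 3 have an adjusted p and 2 were called positive, against that same 8.78% of genes. The calls were Fbln1 (273 and 214 against 37.8 and 35.1) and Mgp (213 and 133 against 35.7 and 18.9). Fbn1, the third with an adjusted p, had no call and stood at -0.38 (SE 0.57) in the authors' deposited table. Pdgfrb, without an adjusted p, stood there at -0.73 (SE 0.77). Of the 15 markers, 11 lay below 0, with a median of -0.38. Over the 5 with a mean of at least 10 the median was -0.15. The list summed to 596 and 437 against 230 and 178. Without Fbln1 it summed to 323 and 223 against 192 and 143. Without Fbln1 and Mgp it summed to 110 and 90.0 against 157 and 124. Both genes were left out after their values were seen. The 9 endothelial and mural markers summed to 56.7 and 23.5 against 109 and 94.5, led by Kdr, Tek, Vwf and Cspg4. The 6 microglial markers, led by Csf1r, Cx3cr1, C1qa and Itgam, summed to 49.9 and 22.7 against 86.1 and 135. No endothelial, mural or microglial marker has an adjusted p, so none could be called. Neuronal markers summed to 200.3 and 249 against 161 and 381, with overlap, and 0 of the 2 with an adjusted p were called. All of these markers had axonal reads, and their part in the collagen values was not tested.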

How the data were processed

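RNA of 8 samples was sequenced after TruSeq library preparation, per the labels' protocols. The submitters' processing notes name Trim Galore, TopHat2, SAMtools and DESeq2, without versions. Genome build, annotation and counting program: not given in the sources used here. The 2 deposited tables hold, per the file headers, a mean normalized count (a signal made by the authors from counts divided by size factors over 4 libraries), a log2 fold change and its standard error, a deposited Wald score, and the authors' p-value with its Benjamini-Hochberg adjusted p-value. Neither treatment is named as numerator. No count test was run here.

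A deposited mean is a sum of 4 whole read counts, each times a unit fixed for its library. Units came from genes with 1 read, and their side from the sign of the fold change. For all 23630 axonal and 18384 cell body means up to 300, exactly 1 solution lay within the rounding of the last of 15 digits, and 0 of 617 and 0 of 800 decoys shifted beyond rounding had any. On simulated means, 1455 of 1455 and 1406 of 1406 were solved rightly. Members of the lists were solved to a mean of 1000. Libraries cannot be matched to sample titles and enter no test. Log2 ratios of sides used a pseudocount of 1. Deposited log2 fold changes of the chains were nearer 0 than these ratios, more so in the cell bodies (0.27 against 0.52 for Col8a1).

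Collagen chains, lists and tests were chosen with earlier results of these data known. All member chains called or with a mean of at least 10 in either table were named, with partner chains where these could be named. From each list the called genes and the 4 of highest axonal mean were named. The difference between compartments was tested on the deposited values over all genes with scipy 1.17.1, and the test was checked on simulated data. Some marker genes are not reported here.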

Additional observations from a re-analysis of the deposited data

How the results depend on the processing

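Of the 4 axonal calls, 2 (Col1a1 and Col1a2) passed when p was adjusted over genes with a mean of at least 10, over every gene with reads (2), or after subtracting the median of well expressed genes, 0.44 (2); all were positive. With chains named through Entrez there were 5. The cell body and difference counts stayed at 0 in every alternative run. For the cell bodies this says little, as the smallest unadjusted p of a chain with a symbol was 0.385 (DESeq2, run by the authors). The axonal median became -0.44 after that subtraction, -0.30 with Entrez-named chains, 0.33 for chains with a cell body mean of at least 10 and -0.77 below it (both chosen after seeing the data), and -0.055 to 0.27 when 1 library was left out of the recovered ratio; the cell body median then ran from -0.42 to 0.35. The cause was not tested. No paired analysis was possible because the recovered libraries carry no replicate number. The recovered reads were not refitted with a count model, neither without a library nor by depth. Few reads limit many chains, among them Col4a4 in axons and Col13a1 in the cell bodies.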
